A study of Drosophila melanogaster with 10 samples.

Results

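The Arc locus of Drosophila melanogaster holds 3 adjacent annotated genes, Arc1, CR10102 and Arc2, out of 17676 genes counted in this study. They were chosen by the counts of Arc1 and CR10102 in these same libraries, which were far higher in a single genotype, so their levels and fold changes are given as a description with no test. Arc1 (FBgn0033926) occupies positions 14357927 to 14360297 of chromosome arm 2R (BDGP6) on the minus strand, in 1 exon of 2371 bp. CR10102 (FBgn0033927) lies 135 bp further along, at 14360433 to 14361780 on the same strand, in 1 exon of 1348 bp, and is annotated as a pseudogene. Arc2 (FBgn0033928) follows after 143 bp, at 14361924 to 14362825 on the plus strand, in 1 exon of 902 bp. Each gene has 1 annotated transcript, none overlaps another annotated gene, and the whole locus spans 4899 bp.

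Arc proteins descend from the Gag protein of a Ty3/gypsy retrotransposon, the protein that builds the particle around the element's RNA. In flies, Arc1 protein forms virus-like capsids that hold Arc1 mRNA and pass in extracellular vesicles from motor neurons to muscle at the neuromuscular junction, and Arc1 is also known for roles in behavior under starvation and in fat metabolism. Arc2 encodes a second capsid-forming Arc protein. Mammalian Arc, which arose from a separate insertion of a related element, is induced by neuronal activity and acts in synaptic plasticity. CR10102 carries the synonyms Arc3 and dArc3 in RefSeq, and its row in the table counts transcripts of a locus annotated as making no protein.

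The study asked how depletion of the transcription elongation factor Spt5 affects brain tumors caused by loss of brat. All genotypes carried wor-GAL4 ase-GAL80 UAS-mCD8::GFP, in which wor-GAL4 is active in neuroblasts and ase-GAL80 silences it in those of type I, so that GFP and the knockdown constructs were expressed in type II neuroblasts (NB II) and their descendants. In 3 libraries the cells expressed an Spt5 siRNA on top of a brat dsRNA (brat-KD Spt5-KD), in 4 the brat dsRNA alone (brat-KD, whose NB II lineages form the tumors), and 3 were the control with neither. The study identified NB II by light scatter and GFP intensity and sorted them from dissected larval brains. The larvae were aged 96 h according to the labels (the study's methods give another age), and poly(A) RNA was sequenced. No library with Spt5 knockdown alone was analysed here. Nothing in the labels says whether replicates came from separate dissections, so p-values measure the spread between these samples, which may be technical. In such bulk samples a change in the number of cells of a type and a change in RNA per cell cannot be told apart.

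Library totals ranged from 2158058 to 9753111 counts. The brat transcript was at 290.4, 106.5 and 236 CPM (counts scaled to a common library size by the TMM method) in the brat-KD Spt5-KD-labelled libraries and at 129.8 to 214.4 CPM in brat-KD, against 880.5 to 1002 CPM in the control. The Spt5 transcript was not lower in the libraries labelled for its knockdown, and the name brat-KD Spt5-KD stands for that label throughout. It was at 205.4, 115.8 and 583.9 CPM in the brat-KD Spt5-KD-labelled libraries, against 127.8 to 164.7 CPM in brat-KD and 181.6 to 227.4 CPM in the control. The difference from brat-KD did not pass the test (log2 fold change 1.06, adjusted p = 0.17 by edgeR). Elsewhere the study reported lower Spt5 transcript by qRT-PCR when this siRNA was expressed throughout larvae. It also reported that siRNA-resistant Spt5 reversed the effect of the siRNA on tumor growth. Across genes, replicate 1 of brat-KD Spt5-KD had a Spearman correlation of 0.801 with each of the other 2 libraries of its genotype, which correlated at 0.934 with each other. Replicate 1 of the control stood apart to a smaller extent (0.897 and 0.895, against 0.987). The neuroblast marker dpn was at 16 CPM in brat-KD Spt5-KD replicate 1, against 115.2 and 154.3 CPM in replicates 2 and 3.

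Arc1 was abundant in the brat-KD Spt5-KD-labelled libraries and close to the limit of detection in most others. It had 3606, 2326 and 501 counts in the 3 brat-KD Spt5-KD-labelled libraries, against 2, 15, 0 and 5 counts in the 4 brat-KD libraries and 0, 32 and 165 counts in the 3 control libraries (replicates in order of their numbers, here and below). On the CPM scale these are 849.3, 503.7 and 252.6 in brat-KD Spt5-KD, against 0.349, 2.54, 0 and 0.83 in brat-KD and 0, 3.33 and 36.5 in the control. The lowest brat-KD Spt5-KD library thus lay above every library of the other genotypes. The 95% exact binomial interval was 231.0 to 275.7 CPM for that lowest library and 31.1 to 42.5 CPM for control replicate 3, the highest of the others. Such intervals treat reads as independent and do not cover the spread between samples. PCR copies were not removed by molecular identifiers, so the intervals may be too narrow even for counting error. For a count of 0 the interval reached 0.487 CPM in brat-KD replicate 3 and 0.651 CPM in control replicate 1. The floor of 3 counts used below stood at 0.396 and 0.53 CPM in these libraries.

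**Figure D1:**
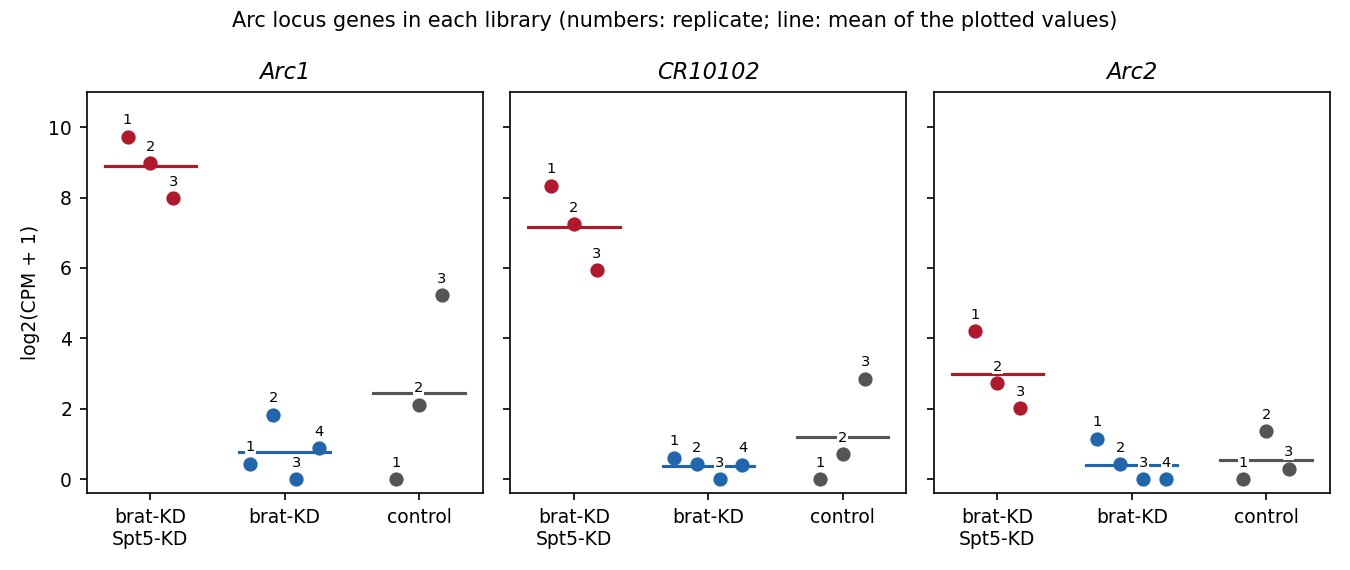
Level of Arc1, CR10102 and Arc2 in each of the 10 libraries, as log2(CPM + 1), with brat-KD Spt5-KD on the left, then brat-KD and control. Points are libraries with their replicate number and horizontal lines are means of the plotted values. For each gene the 3 brat-KD Spt5-KD libraries lie above all others, and the brat-KD and control libraries overlap.

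Mean Arc1 levels were 535.2 ± 299.6 CPM in brat-KD Spt5-KD (SD, n = 3), 0.93 ± 1.13 CPM in brat-KD (n = 4) and 13.3 ± 20.2 CPM in the control (n = 3). The log2 fold change of brat-KD Spt5-KD over brat-KD was 9.18 (SE 0.776) and placed Arc1 at rank 3 from the highest among 8750 genes tested, whose median was −0.05. Without brat-KD replicate 2, which held most of the Arc1 counts of that genotype, it was 10.39, and leaving out the library that stood apart, brat-KD Spt5-KD replicate 1, gave 8.71. Over the control the log2 fold change was 5.40 (SE 1.38), which is rank 38 of 8506 genes with a median of −0.01. That value was set by control replicate 3: without this library it was 8.14, whereas leaving out brat-KD Spt5-KD replicate 1 gave 4.94 and leaving out control replicate 1 gave 4.73. In both of these comparisons Arc1 kept its sign under each alternative tried, which says nothing further, as its libraries did not overlap.

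Between brat-KD and control, Arc1 libraries overlapped. The log2 fold change of brat-KD over the control was −3.82 (SE 1.53), with a rank of 8739 from the highest among 8785 genes whose median was −0.02. It was −0.86 without control replicate 3 and −4.42 without control replicate 1. Without brat-KD replicate 2, which held 15 of the brat-KD counts, Arc1 did not pass the filter on low counts and gave no value. The SD of the 3 control libraries was larger than their mean.

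CR10102 showed the same order of libraries as Arc1 within brat-KD Spt5-KD and within the control. It had 1370, 694 and 119 counts in the brat-KD Spt5-KD-labelled libraries, against 3, 2, 0 and 2 in brat-KD and 0, 6 and 28 in the control. In CPM this is 322.7, 150.3 and 60 in brat-KD Spt5-KD, against 0.524, 0.339, 0 and 0.332 in brat-KD and 0, 0.625 and 6.19 in the control. Every brat-KD library was thus at or under the floor of 3 counts. Its mean was 177.7 ± 133.5 CPM in brat-KD Spt5-KD (SD, n = 3), against 0.299 CPM in brat-KD. CR10102 was at least 369-fold higher in brat-KD Spt5-KD, with brat-KD set at that floor. Over the control, with a mean of 2.27 ± 3.41 CPM (n = 3), the log2 fold change was 6.43 (SE 1.26), rank 27 of 8506 genes. Leaving out control replicate 3 gave 8.81, leaving out control replicate 1 gave 5.78 and leaving out brat-KD Spt5-KD replicate 1 gave 5.72. CR10102 was too low to be tested between brat-KD and control, where its libraries overlapped.

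Arc2 was far less abundant, and its counts are small throughout. It had 74, 26 and 6 counts in the brat-KD Spt5-KD-labelled libraries, against 7, 2, 0 and 0 in brat-KD and 0, 15 and 1 in the control. These correspond to 17.4, 5.63 and 3.02 CPM in brat-KD Spt5-KD, against 1.22, 0.339, 0 and 0 in brat-KD and 0, 1.56 and 0.221 in the control. The lowest brat-KD Spt5-KD library was still above the highest of the others, but by a small number of reads. The mean was 8.7 ± 7.68 CPM in brat-KD Spt5-KD (SD, n = 3), against 0.39 CPM in brat-KD and 0.594 CPM in the control. The log2 fold change over brat-KD was 4.41 (SE 1.41), rank 57 of 8750 genes. It was 6.06 without brat-KD replicate 1, which held most of that genotype's Arc2 counts, and 3.44 without brat-KD Spt5-KD replicate 1. Over the control the value was 3.78 (SE 1.60), rank 82 of 8506 genes. Leaving out control replicate 2 gave 6.0, leaving out control replicate 1 gave 3.16 and leaving out brat-KD Spt5-KD replicate 1 gave 2.79. Like CR10102, Arc2 was not tested between brat-KD and control.

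All 3 members passed the filter on low counts in both comparisons with brat-KD Spt5-KD. In CPM, all 3 had brat-KD Spt5-KD libraries that did not overlap the other genotype, although for Arc2 the raw counts did overlap. Among all genes tested, 12.9% had brat-KD Spt5-KD libraries above every brat-KD library and 15.8% had them above every control library. As the members were chosen for this difference, nothing is read from their count. The members pass that filter only through the genotype in which they are high.

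Divided by exon length, the 3 genes fell in a fixed order within the brat-KD Spt5-KD-labelled libraries. Arc1 was at 358.2, 212.4 and 106.5 CPM per kb, CR10102 at 239.4, 111.5 and 44.5 CPM per kb, and Arc2 at 19.3, 6.24 and 3.35 CPM per kb. Arc1 therefore ranked above CR10102 and CR10102 above Arc2 in each of these 3 libraries, although the ranges of Arc1 and CR10102 over libraries overlapped. The highest library exceeded the lowest 3.36-fold for Arc1, 5.38-fold for CR10102 and 5.76-fold for Arc2, and for each gene replicate 1 was the highest and replicate 3 the lowest. How reads that match more than 1 of these related genes were assigned is not given in the sources used here, and their sequences were not compared here, so the split of reads among the 3 genes is uncertain to that extent.

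The ratio between the neighbours Arc1 and CR10102 is free of differences in library size. CR10102 took 27.5% of the summed Arc1 and CR10102 counts in brat-KD Spt5-KD replicate 1 (exact binomial 95% interval 26.3 to 28.8%), 23.0% in replicate 2 (21.5 to 24.5%) and 19.2% in replicate 3 (16.2 to 22.5%). The share was thus highest in the library in which both genes were highest. These intervals treat reads as independent and do not hold the spread between samples, so no difference between libraries is read from them. In the control the share was 15.8% in replicate 2 (6.02 to 31.2%) and 14.5% in replicate 3 (9.86 to 20.3%), while control replicate 1 had no count of either gene. In brat-KD the summed counts were 5, 17 and 7 in replicates 1, 2 and 4, too few to place the share.

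**Figure D2:**
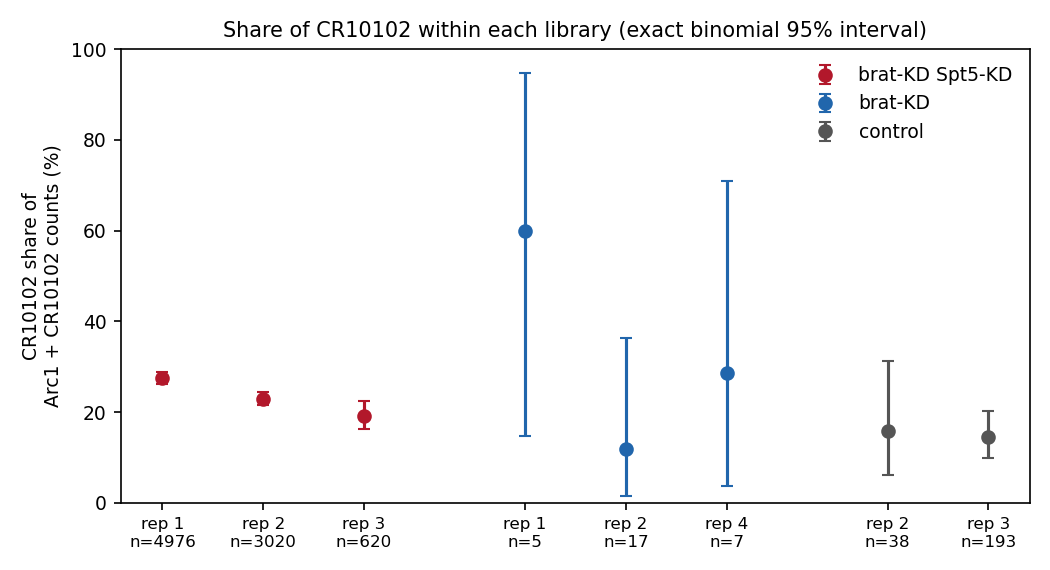
Share of CR10102 in the summed Arc1 and CR10102 counts of each library with at least 1 such count, in percent. Points are libraries, bars are exact binomial 95% intervals and n is the summed count. The brat-KD Spt5-KD libraries lie at 27.5, 23.0 and 19.2%, control replicates 2 and 3 at 15.8 and 14.5%, and the brat-KD intervals are wide.

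Arc2 made up a small share of the summed Arc1 and Arc2 counts wherever Arc1 was abundant. Its share was 2.01% (1.58 to 2.52%), 1.1% (0.723 to 1.62%) and 1.18% (0.435 to 2.56%) in the brat-KD Spt5-KD-labelled libraries, and 0.602% (0.0152 to 3.31%) in control replicate 3. It was 31.9% of 47 counts in control replicate 2 (19.1 to 47.1%) and 77.8% of 9 counts in brat-KD replicate 1 (40.0 to 97.2%). Both of these shares rest on few reads, as does that of control replicate 3, with 1 Arc2 count of 166. The interval of control replicate 2 nevertheless lay above those of the libraries in which Arc1 was abundant.

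The genes on either side of the locus differed far less between genotypes than Arc1 and CR10102 did. Like the Arc genes, however, Tfb1 and CG17385 had higher CPM in every brat-KD Spt5-KD library than in any library of the other genotypes. Of 19 genes within 50 kb, 3 at lower and 16 at higher coordinates, 5 were expressed highly enough to be tested, 10 had at most 3 counts in every library (5 of them had none), and 4 had more than 3 counts in some library but did not pass the filter on low counts. The genes that were not tested all lie on the Arc2 side and include a cluster of odorant-binding protein genes. Of the 5 tested, 2 were higher and 0 lower in brat-KD Spt5-KD than in brat-KD, beside 11.6% of all genes called in either direction (5.91% higher and 5.71% lower). Against the control 1 was higher and 0 lower (7.29% of all genes called, 3.97% higher and 3.32% lower), and between brat-KD and control 1 was higher and 2 were lower in brat-KD (28.1% of all genes called, 13.8% higher and 14.3% lower). Their log2 fold changes over brat-KD lay between −0.82 and 1.51.

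**Figure D3:**
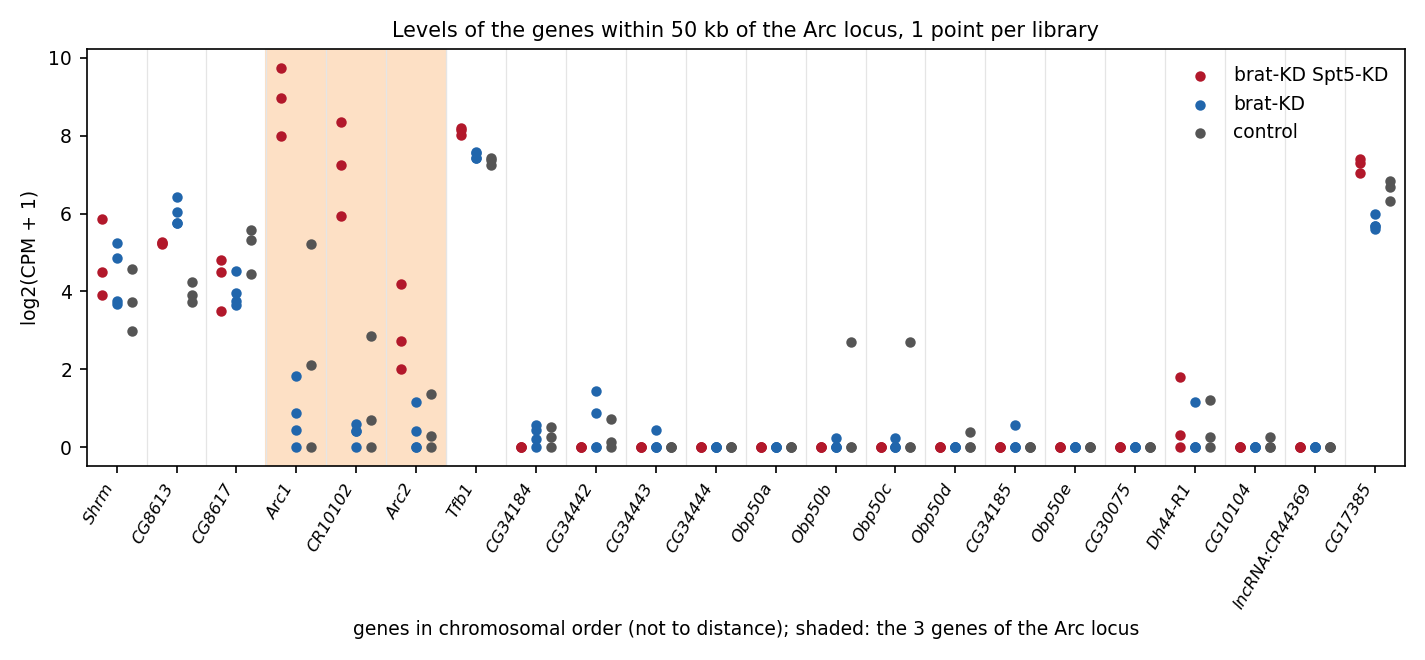
Levels of the 3 Arc locus genes (shaded) and the 19 genes within 50 kb in chromosomal order, as log2(CPM + 1), with 1 point per library and brat-KD Spt5-KD drawn left of brat-KD and control. Away from the shaded genes only Shrm, CG8613, CG8617, Tfb1 and CG17385 were high enough to test, and none showed a difference near that of Arc1 or CR10102.

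Tfb1, which encodes a subunit of the general transcription factor TFIIH, is the nearest gene beyond Arc2, at 222 bp and on the same strand. It was at 257.7, 282.4 and 291.9 CPM in the brat-KD Spt5-KD-labelled libraries, against 170.7, 189.7, 172.4 and 187.6 CPM in brat-KD and 164.9, 150.9 and 171.8 CPM in the control. The log2 fold change was 0.60 over brat-KD (SE 0.145, adjusted p = 0.030) and 0.77 over the control (SE 0.181, adjusted p = 0.044). All p-values come from the quasi-likelihood test of edgeR, adjusted by Benjamini and Hochberg's method over all genes tested. Tfb1 stayed above the brat-KD level in every library, but the call was lost with no filter on low counts (adjusted p = 0.074) and when brat-KD Spt5-KD replicate 2 (0.067) or 3 (0.073), or brat-KD replicate 1 (0.089), 2 (0.068), 3 (0.079) or 4 (0.063), was left out. Against the control it was lost with no filter (0.09) and without brat-KD Spt5-KD replicate 2 (0.12) or 3 (0.14) or control replicate 1 (0.11), 2 (0.26) or 3 (0.18).

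CG17385, at 46469 bp beyond Arc2, was the other neighbour called higher. It was at 131.2, 168.9 and 156.3 CPM in the brat-KD Spt5-KD-labelled libraries, against 50.1, 50.1, 47.9 and 62.2 CPM in brat-KD and 113, 79.0 and 101.3 CPM in the control. Its log2 fold change over brat-KD was 1.51 (SE 0.195, adjusted p = 0.0037 by edgeR) and kept the call with each library left out. Unlike Arc1, it was also abundant in all control libraries and lower in brat-KD than in the control (log2 fold change −0.91, SE 0.188, adjusted p = 0.0047).

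On the Arc1 side, CG8617 ends 645 bp from Arc1 and is transcribed from the same strand. It was at 10.4, 21.6 and 27.2 CPM in the brat-KD Spt5-KD-labelled libraries, against 14.7, 21.9, 11.5 and 12.4 CPM in brat-KD and 20.8, 39.0 and 46.7 CPM in the control. Its lowest brat-KD Spt5-KD library was the one in which Arc1 was highest. The difference from brat-KD did not pass the test (log2 fold change 0.36, adjusted p = 0.71 by edgeR). CG8617 was lower in brat-KD than in the control (log2 fold change −1.24, SE 0.350, adjusted p = 0.022), a call lost with all 3 genotypes in 1 fit (0.11) and without brat-KD replicate 1 (0.062), 3 (0.057) or 4 (0.056) or control replicate 2 (0.087) or 3 (0.13). CG8613, at 2252 bp, moved the other way in brat-KD. It was at 37.2, 36.0 and 37.3 CPM in the brat-KD Spt5-KD-labelled libraries, against 64.4, 85.5, 53.4 and 52.8 CPM in brat-KD and 12.2, 18.0 and 13.9 CPM in the control, and was called higher only for brat-KD over the control (log2 fold change 2.11, SE 0.259, adjusted p = 2.1e-04 by edgeR, against 0.074 and 0.13 for brat-KD Spt5-KD over brat-KD and over the control). Shrm, at 6124 bp, passed the test in none of the 3 comparisons (adjusted p = 0.71, 0.47 and 0.40).

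Other host genes derived from retroelements were barely detected. Gagr, a gene from a gypsy Gag, had no count in the brat-KD Spt5-KD-labelled libraries and at most 3 counts in any brat-KD and 4 in any control library. Iris, a gene from a viral envelope, was at 0, 1.52 and 6.55 CPM in the brat-KD Spt5-KD-labelled libraries, against 0.524, 0, 0.396 and 1.49 CPM in brat-KD and 0, 0.417 and 0.885 CPM in the control. Neither gene was tested, and Iris was at 0 in the library in which Arc1 was highest.

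The genes whose levels followed Arc1 most closely over the 10 libraries were CG32483, CG42788, rpr, rgr and Ddc, with Pearson r of log2(CPM + 1) between 0.958 and 0.981 among 8240 genes. CR10102 correlated with Arc1 at 0.982, above all of them, and Arc2 at 0.849, at rank 191. CG32483 was at 20.5, 19.3 and 11.6 CPM in the brat-KD Spt5-KD-labelled libraries, against 0.174, 0.169, 0 and 0 CPM in brat-KD and 0, 0.104 and 1.99 CPM in the control, and thus repeated the order of Arc1 in brat-KD Spt5-KD and the higher level of control replicate 3. It was also the gene most like CR10102 (0.995), followed by Col4a1, CG42788, Polr2B and rgr (0.967 to 0.974). Polr2B, which encodes the second-largest subunit of RNA polymerase II, was at 596.4, 514.3 and 477.5 CPM in the brat-KD Spt5-KD-labelled libraries, against 231.8 to 268.3 CPM in brat-KD and 271.7 to 279.7 CPM in the control.

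Arc2 was followed by another set, Ctr1A, btn, RpL22-like, Psf1 and lncRNA:CR46056 (0.937 to 0.96), in which CR10102 stood at rank 38 (0.898). RpL22-like, a paralog of a ribosomal protein gene known for expression in the germline, was at 25.7, 5.20 and 8.57 CPM in the brat-KD Spt5-KD-labelled libraries, against 0.349, 0, 0 and 0 CPM in brat-KD and 0, 0.208 and 0 CPM in the control. The copper transporter gene Ctr1A was at 53.2, 24.2 and 25.2 CPM in the brat-KD Spt5-KD-labelled libraries, against 9.96 to 14.7 CPM in brat-KD and 8.83 to 14.8 CPM in the control. These r values share the same 3 genotypes and so mostly rank genes by how they differ between genotypes. The sets were not stable. With Spearman's correlation 0, 0 and 1 of the 5 genes named for Arc1, CR10102 and Arc2 remained, and 0, 1 and 0 remained without replicate 1 of brat-KD Spt5-KD and of the control.

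**Figure D4:**
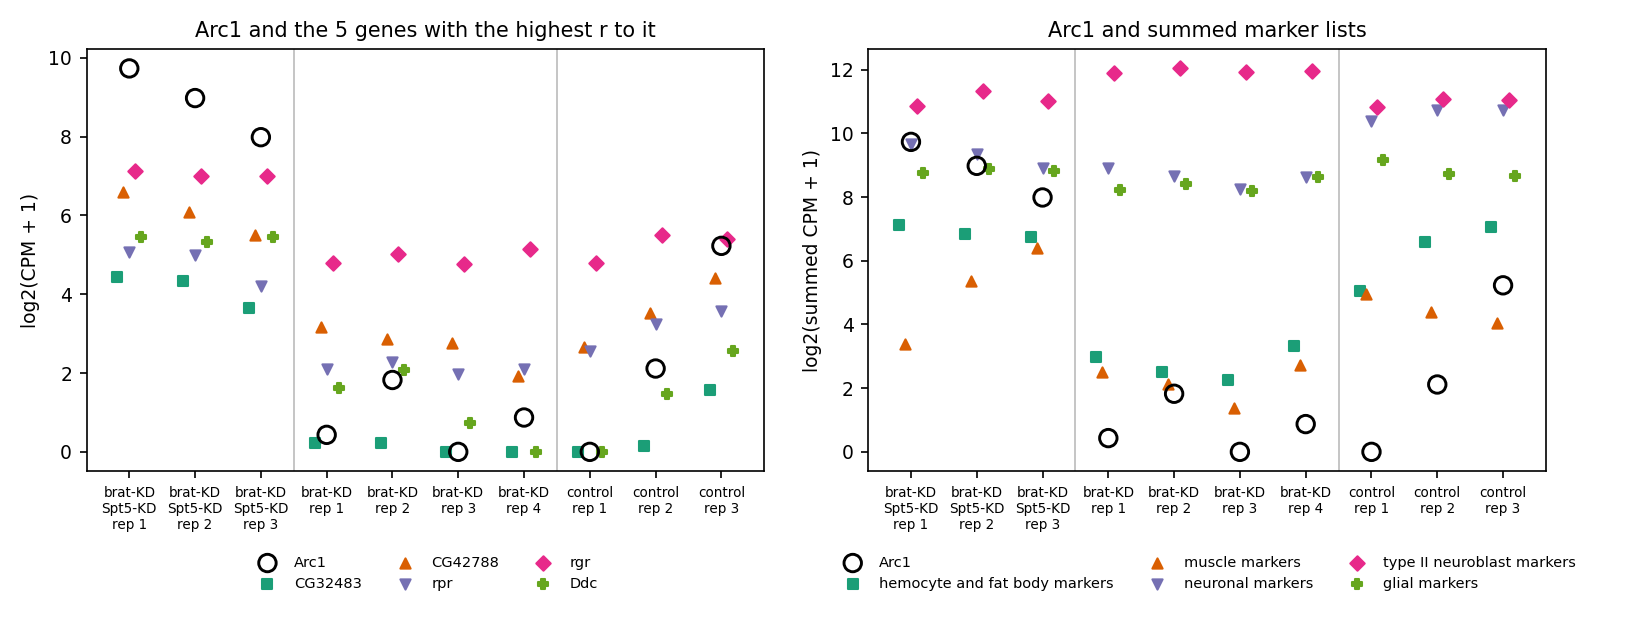
Left, Arc1 (open circles) and the 5 genes with the highest Pearson r to it, as log2(CPM + 1), in each library with brat-KD Spt5-KD first. Right, Arc1 with the summed CPM of 5 marker lists, as log2(summed CPM + 1). All 5 genes on the left are highest in brat-KD Spt5-KD, and on the right the hemocyte and fat body sum is high in brat-KD Spt5-KD and in 2 control libraries, and low in brat-KD.

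Genes with which fly or mammalian Arc has been linked were read from lists, for each of which the number of members past the test is given. Over all genes tested, 5.91% rose and 5.71% fell in brat-KD Spt5-KD against brat-KD, and 3.97% rose and 3.32% fell against the control. For brat-KD against the control 13.8% rose and 14.3% fell. Without brat-KD Spt5-KD replicate 1, 2408 genes were called over brat-KD in place of 1017. Single calls in short lists lie near these shares. Capsid and vesicle release uses the ESCRT machinery, which cuts buds from membranes, and Rab GTPases that move vesicles. Of 20 genes for vesicle release and ESCRT, 3 rose and 1, the GTPase gene Rab35, fell in brat-KD Spt5-KD against brat-KD, with a median log2 fold change of 0.29 beside −0.05 for all genes, and 6 rose and 1 fell without brat-KD Spt5-KD replicate 1. Vps25, an ESCRT-II subunit gene, was at 118.5, 80.8 and 67.6 CPM in the brat-KD Spt5-KD-labelled libraries, against 14.1 to 30.2 CPM in brat-KD and 40.4 to 59.0 CPM in the control (log2 fold change over brat-KD 1.95, SE 0.330, adjusted p = 0.0091 by edgeR). The ESCRT-I subunit gene TSG101, whose product viral Gag proteins recruit, was at 123.4, 132.1 and 111.9 CPM in the brat-KD Spt5-KD-labelled libraries, against 55.8 to 62.9 CPM in brat-KD (1.04, SE 0.177, adjusted p = 0.0093). Vps28, another ESCRT-I gene, rose by 1.37 (SE 0.309, adjusted p = 0.024), a call lost without brat-KD Spt5-KD replicate 3 (0.075) or brat-KD replicate 1 (0.079), 3 (0.054) or 4 (0.07). Rab35 had a log2 fold change of −0.86 (adjusted p = 0.032), a call lost without brat-KD Spt5-KD replicate 2 (0.068) or brat-KD replicate 1 (0.13), 2 (0.065), 3 (0.083) or 4 (0.088). Against the control the median log2 fold change was 0.61 and 0 of the 20 passed edgeR's test in either direction. At an unadjusted p under 0.05 there were 7, of which 5 were higher, and DESeq2 called 3, of which 2 were higher. By edgeR without brat-KD Spt5-KD replicate 1, 0 rose and 2 fell, and for brat-KD against the control 1 rose and 3 fell (2 and 4 without control replicate 1).

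Mammalian Arc is an immediate-early gene. A list of 6 transcription factors of activity or immediate-early response (Hr38, sr, kay, Jra, CrebA and CrebB) is wider than that class. Of these, 0 passed edgeR's test in brat-KD Spt5-KD against brat-KD or against the control. Without brat-KD Spt5-KD replicate 1, 1 rose and 1 fell against brat-KD. Log2 fold changes over brat-KD ran from −0.65 (Jra) to 2.54 (sr), with a median of 1.00. By edgeR's unadjusted p under 0.05 there were 3 against brat-KD and 0 against the control, and DESeq2 called 1 and 0. Of 5 tested between brat-KD and control, 1 rose. Their summed level was 127.1 to 152 CPM in brat-KD Spt5-KD, against 122.3 to 142.2 CPM in brat-KD and 100.8 to 165.8 CPM in the control.

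Of 16 tested stress and injury genes, 4 rose and 2 fell in brat-KD Spt5-KD against brat-KD, 4 rose and 0 fell against the control (2 without control replicate 1), and 4 rose and 0 fell in brat-KD against the control. The list holds genes the study names from these samples, and so is not independent evidence of a direction. The cell death gene rpr was at 32.5, 31.2 and 17.6 CPM in the brat-KD Spt5-KD-labelled libraries, against 2.9 to 3.9 CPM in brat-KD and 4.94 to 10.8 CPM in the control (log2 fold change over brat-KD 2.99, SE 0.508, adjusted p = 0.0091 by edgeR). Gadd45, a stress response gene, was at 62.0 to 65.5 CPM in the brat-KD Spt5-KD-labelled libraries, against 8.96 to 19.0 CPM in brat-KD (2.26, SE 0.346, adjusted p = 0.0063). Thor, which encodes the translation inhibitor 4E-BP, fell by 2.51 on the log2 scale against brat-KD (SE 0.460, adjusted p = 0.012).

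Arc1 has been tied to lipid stores and feeding state in larvae and adults. Of 14 tested genes for lipid storage and starvation metabolism, 0 rose and 5 fell in brat-KD Spt5-KD against brat-KD (median log2 fold change −0.43), 1 rose and 0 fell against the control (3 rose and 1 fell without brat-KD Spt5-KD replicate 1, and 2 rose without control replicate 1), and 8 rose and 1 fell in brat-KD against the control. The insulin-responsive transcription factor gene foxo was at 2.12, 6.28 and 4.54 CPM in the brat-KD Spt5-KD-labelled libraries, against 44.2 to 65.2 CPM in brat-KD and 4.48 to 7.3 CPM in the control, so that its brat-KD Spt5-KD and control libraries overlapped (log2 fold change over brat-KD −3.60, SE 0.478, adjusted p = 0.0039 by edgeR). The study names foxo from these samples, so this list too is not independent evidence of a direction. The insulin receptor gene InR fell by 1.58 (SE 0.247, adjusted p = 0.0066). The coactivator gene srl fell by 1.84 (SE 0.350, adjusted p = 0.013, and 0.051 without brat-KD replicate 1).

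Neuropeptide and peptide processing genes were mostly too low to test. Of 8 tested, 1 rose and 0 fell in brat-KD Spt5-KD against brat-KD (4 rose of 10 without brat-KD Spt5-KD replicate 1), 0 rose and 1 fell against the control (1 rose of 12 without brat-KD Spt5-KD replicate 1, and 0 fell of 11 without control replicate 1), and 0 rose and 5 fell in brat-KD against the control. Tk, the tachykinin precursor gene, was at 13.4, 40.1 and 26.2 CPM in the brat-KD Spt5-KD-labelled libraries, against 0.349, 0.508, 0 and 0 CPM in brat-KD and 0, 2.6 and 1.99 CPM in the control. Tk was thus at least 55.2-fold higher in brat-KD Spt5-KD, with brat-KD set at the floor of 3 counts per library (adjusted p = 0.0069 by edgeR).

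Markers of cell types moved with the Arc genes in several ways, and their part in the Arc levels was not tested. Their counts are to be read beside the shares of all genes called that are given above for the lists. The summed level of 13 hemocyte and fat body markers was 138.5, 114.1 and 105.4 CPM in the brat-KD Spt5-KD-labelled libraries, against 3.83 to 8.96 CPM in brat-KD and 32.3, 96.1 and 131.4 CPM in the control, which is the order of the Arc1 levels within brat-KD Spt5-KD and within the control. Different genes made up the sums. In brat-KD Spt5-KD most came from the collagen gene Col4a1, at 80.8, 69.3 and 71.1 CPM, against 0 to 1.22 CPM in brat-KD and 0 to 4.87 CPM in the control, whereas in the control Pxn, a peroxidasin gene, averaged 66.4 CPM, against 4.25 CPM in brat-KD Spt5-KD. Hml, a marker of mature hemocytes, was at 16, 8.23 and 6.55 CPM in the brat-KD Spt5-KD-labelled libraries, against 0.349, 0, 0 and 0 CPM in brat-KD and 0 in every control library. The other hemocyte markers He, NimC1 and eater were at 0 in every library. Of 5 tested markers 2, Col4a1 and Hml, rose in brat-KD Spt5-KD against brat-KD (adjusted p = 0.0024 and 0.016 by edgeR) and against the control (0.034 and 0.037). Hml lost its call over brat-KD without brat-KD replicate 2 (0.054), 3 (0.052) or 4 (0.051). Over the control, Col4a1 lost its call without brat-KD Spt5-KD replicate 2 or 3 (0.11 each) or control replicate 2 (0.15) or 3 (0.073), and Hml without brat-KD Spt5-KD replicate 2 (0.12) or 3 (0.1) or control replicate 1 (0.074), 2 (0.16) or 3 (0.15). Leaving out brat-KD Spt5-KD replicate 1, 3 markers rose against brat-KD, and 2 rose and 1 fell against the control. Leaving out control replicate 1, 1 rose against the control. Between brat-KD and control 0 of 2 rose and 1 fell.

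Muscle, the tissue that receives Arc1 capsids at the neuromuscular junction, had 8 markers on its list. Their sum was 9.42, 39.8 and 83.7 CPM in the brat-KD Spt5-KD-labelled libraries, against 1.58 to 5.64 CPM in brat-KD and 29.8, 20.2 and 15.5 CPM in the control, and so was lowest in the brat-KD Spt5-KD library with most Arc1. The muscle myosin gene Mhc was at 0, 4.33 and 0 CPM in the brat-KD Spt5-KD-labelled libraries. The troponin T gene up was the 1 marker tested against brat-KD and rose (log2 fold change 4.86, SE 0.848, adjusted p = 0.0098 by edgeR; 3 of 5 rose without brat-KD Spt5-KD replicate 1), 0 of 3 passed against the control (0 at an unadjusted p under 0.05 and 0 by DESeq2), and the 1 tested fell in brat-KD against the control.

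Neuronal markers did not follow Arc1 across genotypes. Their sum over 10 genes was 812.6, 653.1 and 482.5 CPM in the brat-KD Spt5-KD-labelled libraries, against 301.6 to 475.7 CPM in brat-KD and 1343 to 1716 CPM in the control, where Arc1 was low or at 0. Within brat-KD Spt5-KD the order of the sums was that of Arc1, but the single gene Snap25 made up much of them, at 371, 360.8 and 221.3 CPM. The order was not shared by elav. The pan-neuronal gene elav was at 122, 63.4 and 86.2 CPM in the brat-KD Spt5-KD-labelled libraries, against 82.6 to 122 CPM in brat-KD and 335.5 to 459.9 CPM in the control. Against brat-KD 1 marker rose and 0 fell, against the control 1 rose and 4 fell (6 without brat-KD Spt5-KD replicate 1), whereas 1 rose and 9 fell for brat-KD against the control. The marker that rose was in each comparison the synaptic SNARE gene Snap25. Over brat-KD its log2 fold change was 1.57 (SE 0.312, adjusted p = 0.016 by edgeR, reaching 0.05 without brat-KD Spt5-KD replicate 2 and 0.052 without brat-KD replicate 4). Over the control it was 2.904 in brat-KD Spt5-KD (adjusted p = 0.0032) and 1.305 in brat-KD (adjusted p = 0.0052).

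Of 10 type II neuroblast markers, 0 rose and 5 fell in brat-KD Spt5-KD against brat-KD, 2 rose and 0 fell against the control (4 rose without brat-KD Spt5-KD replicate 1 and 0 without control replicate 1), and 8 rose and 0 fell in brat-KD against the control. Their sum was 1869 to 2544 CPM in the brat-KD Spt5-KD-labelled libraries, against 3825 to 4204 CPM in brat-KD and 1813 to 2138 CPM in the control. Among those that fell, the spindle orientation gene insc had the largest change (log2 fold change −1.83, SE 0.298, adjusted p = 0.0076 by edgeR). Next were the transcription factor genes Sp1 (−1.68, adjusted p = 0.020) and klu (−1.20, adjusted p = 0.024). Sp1 lost its call without brat-KD Spt5-KD replicate 3 (0.067) or brat-KD replicate 1 (0.066), 2 or 4 (0.054 each), and klu without brat-KD replicate 1 or 3 (0.074 each), 2 (0.058) or 4 (0.069). Of 9 intermediate progenitor markers, 0 rose and 1, grh, fell against brat-KD (log2 fold change −1.45, SE 0.185, adjusted p = 0.0037 by edgeR). The median log2 fold change of the list was 0.34, so grh went against most of it. Without brat-KD Spt5-KD replicate 1, 1 rose and 1 fell against brat-KD. Against the control 0 rose and 1 fell (4 fell without brat-KD Spt5-KD replicate 1). In brat-KD against the control 7 fell and 1, again grh, rose (log2 fold change 2.05). Of 7 tested glial markers 0 passed edgeR's test against brat-KD (1 at an unadjusted p under 0.05 and 0 by DESeq2), 0 of 5 passed against the control (0 and 0), and 0 rose and 1 fell of 7 in brat-KD against the control. Without brat-KD Spt5-KD replicate 1, 1 of 7 rose against brat-KD and 1 of 7 fell against the control. The glial gene repo was at 0, 1.95 and 3.02 CPM in the brat-KD Spt5-KD-labelled libraries. Of 8 epithelial and disc markers 0 rose and 2 fell against brat-KD (4 fell without brat-KD Spt5-KD replicate 1), 0 of 7 passed against the control (5 at an unadjusted p under 0.05 and 2 by DESeq2, and 1 fell without brat-KD Spt5-KD replicate 1), and 1 rose and 2 fell of 7 in brat-KD against the control (2 and 2 of 8 without control replicate 1). The disc genes that fell against brat-KD were the transcription factor genes Dll (log2 fold change −1.45, SE 0.254, adjusted p = 0.0098) and grn (−1.68, SE 0.330, adjusted p = 0.015, a call lost without brat-KD replicate 1 (0.059) or 3 (0.062)).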

How the data were processed

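Reads of poly(A) RNA in directional libraries, run for 75 cycles, had been mapped by the authors to BDGP6 with bowtie2, and the authors deposited unnormalized counts of reads per gene. The labels name dm6, FastQC and edgeR 3.26.8. The counting program, its annotation and whether it used strand are not given in the sources used here. The libraries were amplified with 17 or 24 PCR cycles, and which library had which number is not given. Coordinates and exon lengths came from Ensembl release 115 (BDGP6.54), which holds 17549 of the 17676 genes counted.

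Counts were tested with edgeR 4.0.16 (R 4.3.3). For each pair of genotypes only its own libraries entered the fit, with TMM normalization, filterByExpr and the quasi-likelihood test, and a Benjamini-Hochberg adjusted p under 0.05 was a call. The SE of a log2 fold change is its absolute value divided by the square root of the quasi-likelihood F statistic. For the Arc genes it is given as a description and not read as a test. CPM used TMM factors over all 10 libraries. A floor of 3 counts per library was used for lower bounds. Simulated data with 200 genes changed 4-fold gave 83 (41.5%) recovered over 8750 genes for brat-KD Spt5-KD against brat-KD, 52 (26%) over 8506 against the control and 141 (70.5%) over 8785 for brat-KD against the control. Totals ranged from 2158058 to 9753111 counts, and counting error is widest in brat-KD Spt5-KD replicate 3, which had the fewest.

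The members and the 13 gene lists (retroelement-derived genes, vesicle release and ESCRT, activity and immediate-early factors, stress, lipid, neuropeptides, and markers of neuroblasts, progenitors, neurons, glia, hemocytes and fat body, muscle and discs) were chosen with earlier results of these data known. Of 155 listed genes 154 were in the table under their symbols. The genes named are the members, neighbours that were called or nearest, up to 3 called genes per list with the largest change over brat-KD, defining markers, and the 5 genes most like each member. Rab35 and the members of the activity list were named after their values were seen, and GstD1 and other called list genes were counted only. Alternatives were DESeq2 1.42.0, its size factors in edgeR, total counts, other filters, all 3 genotypes in 1 fit, the replicate number as a block and leaving out each library. List counts without replicate 1 of brat-KD Spt5-KD or of the control were added after seeing the data. No sequence is shown.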

Additional observations from a re-analysis of the deposited data

Results flagged for a closer look

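None of the 3 Arc locus genes had a library set apart within brat-KD, the only genotype with enough libraries for that test. Of 51 genes examined there, 7 had 1 library far from the others. The rate of about 1 in 20 by chance holds for continuous values and not for genes at 0 in most libraries. The 7 are therefore not read as an excess. CG17385 was at 62.2 CPM in brat-KD replicate 4, with the others at 47.9 to 50.1 CPM. Dh44-R1, a diuretic hormone receptor gene 15271 bp beyond Arc2, was at 1.22 CPM in replicate 1 and 0 in the others. Hml and RpL22-like were each at 0.349 CPM in replicate 1 and at 0 in the others. Col4a1 was at 0 in replicate 2, against 1.06 to 1.22 CPM in the others. Obp50b and Obp50c, which share 1 annotated span and had the same counts, were at 0.174 CPM in replicate 1 and 0 in the others. Apart from CG17385, these are differences of a few reads.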

How the results depend on the processing

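The log2 fold changes of the Arc genes kept their sign under every alternative that gave a value. For brat-KD Spt5-KD over each other genotype this is no evidence. Arc1 and CR10102 were chosen for being far higher there, and the libraries of all 3 genes did not overlap in CPM. Arc1 for brat-KD over the control gave no value without brat-KD replicate 2, and Arc2 over brat-KD no value with at least 10 counts required in 3 libraries, since they did not pass the filter. With each library left out in turn, apart from that case, over brat-KD Arc1 ranged from 8.71 to 10.39, CR10102 from 8.44 to 9.59 and Arc2 from 3.44 to 6.06, over the control Arc1 from 4.73 to 8.14, CR10102 from 5.72 to 8.81 and Arc2 from 2.79 to 6.0, and for brat-KD over the control Arc1 from −4.42 to −0.86. The numbers of calls over all genes also moved. For brat-KD Spt5-KD against brat-KD (1017 calls) DESeq2 gave 1648 and leaving out a library 334 to 2408 (334 without brat-KD replicate 1 and 2408 without brat-KD Spt5-KD replicate 1). Against the control (620) DESeq2 gave 1347, all 3 genotypes in 1 fit 1450 and leaving out a library 64 to 1504. For brat-KD against the control (2467) all 3 genotypes in 1 fit gave 1250 and leaving out a library 1691 to 3229. Near the locus, calls against brat-KD (2) were 1 with no filter and 1 to 3 with a library left out. Against the control (1) they were 2 with DESeq2, 0 with no filter, 2 with all 3 genotypes in 1 fit and 0 to 1 with a library left out. Of 36 calls against brat-KD among list genes, neighbours, targeted genes and genes most like the members, 22 to 36 remained with a library left out, as did 4 to 22 of 22 against the control. The causes were not tested.

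Replicate numbers are shared between genotypes, but the labels do not say that they pair samples, and same-numbered libraries did not all deviate together (correlations of −0.0152 to 0.0933 between brat-KD Spt5-KD and brat-KD, and of 0.0475 to 0.146 with the control, where each of the 3 correlated best with its own number). With the replicate number as a block, calls over all genes were 1 against brat-KD and 232 against the control, those near the locus 0 and 0, and of the 36 and 22 calls named above 0 and 10 remained. For brat-KD against the control, calls over all genes were 1735 with the block, 52 of 60 such calls remained, CG8617 not among them (adjusted p = 0.097), and the log2 fold change of Arc1 was −1.78.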
